A study of Mus musculus with 16 samples.

Results

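Thyroid RNA was examined for 35 genes that make, remove or sense reactive oxygen species, among them the peroxidases, the thioredoxin and glutathione systems, targets of the transcription factor NRF2 and selenoproteins. The genes were taken by name, matched to the Ensembl identifiers of the count table, and all 35 were found among its 21640 genes and passed the filter on low counts at both time points. The mice were wild-type C57Bl/6J, put at 8 weeks of age on either a chow control diet (CD) or high-fat food with sucrose-sweetened drinking water (HF+SD). Thyroids were taken after 3 or 6 weeks, with 4 mice in each of the 4 groups and 1 library per mouse, so the spread given is that between mice. The labels give no transgene or engineered allele. The C57Bl/6J strain itself is known for a deletion in Nnt, a mitochondrial source of NADPH, which all groups would share, and Nnt averaged 0.523 to 0.637 CPM (normalised counts, defined later) over the 4 groups. The question was whether the diet moved these genes within each time point, and whether NRF2 targets, peroxidases and selenoproteins moved alike.

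Thyrocytes make hydrogen peroxide at their apical surface as a substrate of thyroid hormone synthesis, and the same cells hold enzymes that remove it. Glutathione peroxidases reduce peroxides with glutathione, peroxiredoxins with thioredoxin, and catalase without either. NRF2, held down by KEAP1 in resting cells, drives many of the genes that supply glutathione and reduced thioredoxin. The thyroid is rich in selenium, which enters selenoproteins as selenocysteine at a TGA codon that elsewhere ends translation. Deiodinases, which activate and inactivate thyroid hormone, are selenoproteins as well.

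In the GENCODE M21 coding sequences, every one of the 10 selenoproteins studied held an in-frame TGA, a single one in each gene except Selenop, the selenium carrier of plasma, with 10. The stretches that follow show that codon in capitals with 5 codons on each side, because it separates the glutathione peroxidases into selenium-containing and cysteine-containing enzymes. Gpx7 and Gpx8 hold a cysteine codon (TGT or TGC, in capitals) at the aligned place.
Gpx1: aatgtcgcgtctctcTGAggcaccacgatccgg
Gpx2: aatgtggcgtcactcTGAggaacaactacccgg
Gpx3: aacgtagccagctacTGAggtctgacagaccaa
Gpx4: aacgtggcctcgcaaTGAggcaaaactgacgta
Gpx7: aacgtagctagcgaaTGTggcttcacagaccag
Gpx8: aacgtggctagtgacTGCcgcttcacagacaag
Selenow: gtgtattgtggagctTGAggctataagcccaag
Txnrd2: actgtgactggttgcTGAggctaa
Counted from the start codon as 1, the TGA was codon 47 of 201 in Gpx1, 13 of 88 in Selenow and 526 of 527 in Txnrd2, where it lies next to the last coding codon. Gpx7, Selenow and Txnrd2 are shown because their levels differed between diets after 6 weeks, and Gpx3 because it differed after 3 weeks.

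The libraries held 30025256 to 48508653 counts. Thyrocyte marker genes were present in all 16 libraries, as the tissue label has it. At 3 weeks they took 27.3 to 30.2% of counts in CD mice and 28.5 to 30.7% in HF+SD mice. At 6 weeks they took 4.9 to 11.9% in CD mice (median 7.37%) and 10.5 to 14.9% in HF+SD mice (median 12%). Thyrocyte RNA thus took a smaller share at 6 weeks, most so on the CD, which limits the 6-week and interaction results. Other tissue was present too. After 6 weeks, 13 skeletal muscle genes took 2.83, 8.68 and 11.9% of the counts of CD mice M43, M48 and M45, against 0.0837% in CD mouse M22 and 0.0962 to 0.344% in the HF+SD mice. At 3 weeks their share was at most 0.00568%. Among the 3-week CD mice, M55 stood apart in a few NRF2 targets, as described later. In bulk tissue, fewer cells of a type and less RNA per cell cannot be told apart. The time points carry different library project numbers, so levels were not tested between them.

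Levels are given as CPM, the normalised read count scaled to library sizes that edgeR's TMM method adjusts. Per kilobase of exon, the CD mice of 3 weeks had the highest mean levels for Sod1 (457 CPM per kb), Gpx4 (267), Prdx5 (188), Txn1 (181), Gpx1 (158) and Selenow (155). The lowest were Nox4 (0.671), Gpx7 (3.44), Txnrd2 (3.68) and Nqo1 (3.73). The cytosolic superoxide dismutase and the lipid peroxide reductase Gpx4 thus headed the order in control thyroid.

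After 6 weeks, 6 of the 35 genes were higher on the HF+SD and 3 were lower at an adjusted p under 0.05 (edgeR's quasi-likelihood test, Benjamini-Hochberg adjustment over all genes tested). The genes that rose were the extracellular superoxide dismutase Sod3, Gpx7, haem oxygenase Hmox1, the glutathione-synthesis enzyme Gclc and the NADPH oxidase subunits Nox4 and Cyba. Nqo1, Selenow and Txnrd2 fell. These counts are 17.1% higher and 8.57% lower, against 12.0% higher and 9.55% lower of all 18249 genes tested, so the share was near that of the whole transcriptome. With an absolute log2 fold change above 1 as well, 3 rose (Sod3, Gpx7, Hmox1) and 2 fell (Nqo1, Selenow), against 6.64% and 6.01% of all genes. The median log2 fold change was 0.07 over the 35 genes and -0.01 over all genes. Scaling the libraries to 9 thyrocyte genes in place of all genes shifted the median of all genes by -0.62 and called 13 of the 35 genes, 1 higher (Sod3) and 12 lower. Over all 18249 genes tested it called 7468, of which 9.68% were higher, so the lower calls were not particular to the 35 genes. Gpx7 (0.48), Hmox1 (0.63), Nox4 (0.23) and Cyba (0.32) stayed positive but were not called under it. At 3 weeks that shift was -0.13.

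After 3 weeks, Sod3 and Gpx7 were higher on the HF+SD, and the secreted peroxidase Gpx3 and the peroxiredoxin Prdx6 were lower. Each direction held 5.71% of the 35 genes, against 9.07% higher and 5.78% lower of all 17238 genes tested. Only Sod3 passed a log2 fold change of 1, where 3.25% of all genes were higher and 1.40% lower. Sod3 and Gpx7 were the 2 genes called at both times, and 24 of 35 were called at neither. The median log2 fold change was -0.03 over the 35 genes and -0.01 over all genes.

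**Figure D1:**
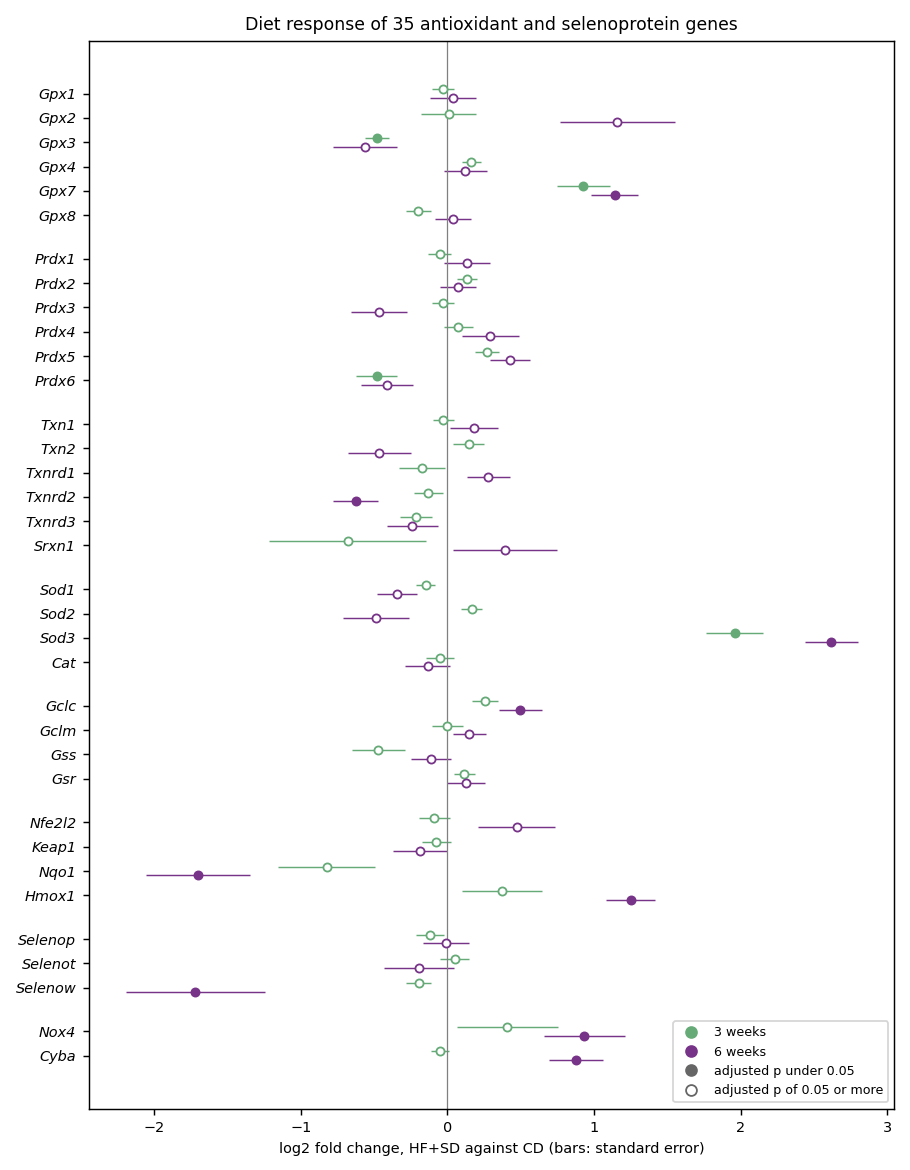
Log2 fold change of HF+SD against CD for each of the 35 genes after 3 weeks (green) and 6 weeks (purple), in blocks by role, with bars for the standard error and filled points for an adjusted p under 0.05. Sod3 lies farthest to the right at 2.62 and 1.96, and Selenow (-1.72) and Nqo1 (-1.70) lie farthest to the left at 6 weeks.

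Sod3 (ENSMUSG00000072941.6), which encodes the secreted dismutase of the extracellular matrix, showed the largest fold change of the 35 genes. After 3 weeks its levels were 112, 154, 173 and 85 CPM in CD mice and 510, 511, 529 and 488 CPM in HF+SD mice. After 6 weeks they were 33.9, 25.1, 31.7 and 38 CPM in CD mice and 164, 241, 186 and 201 CPM in HF+SD mice. Every HF+SD mouse lay above every CD mouse of its time point, with no overlap. Sod3 rose 3.88-fold at 3 weeks, a log2 fold change of 1.96 (SE 0.20, adjusted p = 0.000421), and 6.16-fold at 6 weeks, 2.62 (SE 0.18, adjusted p = 0.000103). With any single mouse removed, Sod3 stayed called, at 2.49 to 2.71 after 6 weeks and 1.80 to 2.12 after 3 weeks.

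The other dismutases and catalase were not called by edgeR at either time. An alternative test, DESeq2's Wald test, called Sod1 lower at 6 weeks. Sod1, the cytosolic enzyme, averaged 517 ± 53.5 CPM (SD, n = 4) in CD mice and 408 ± 13.7 CPM (SD, n = 4) in HF+SD mice at 6 weeks, a log2 fold change of -0.34 with an adjusted p of 0.106. At 3 weeks it was -0.15 with an adjusted p of 0.153. The diets did not overlap for Sod1 at either time, yet it missed the threshold at both in edgeR. Mitochondrial Sod2 had log2 fold changes of 0.17 at 3 weeks and -0.49 at 6 weeks, and catalase (Cat) of -0.05 and -0.14.

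Endothelial and mural markers moved with Sod3. At 6 weeks, 6 of 7 endothelial genes were higher on the HF+SD, with a summed share of 0.101 to 0.117% of counts against 0.0207 to 0.0414% on the CD, and 5 of 6 smooth muscle and pericyte genes were higher, at 0.112 to 0.119% against 0.037 to 0.056%. At 3 weeks, 6 of 7 endothelial genes and 2 of 6 smooth muscle and pericyte genes were higher, with endothelial shares of 0.0668 to 0.0934% against 0.0384 to 0.047%. Their part in the Sod3 and Gpx7 results was not tested.

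Among the glutathione peroxidases, Gpx7 rose and Gpx3 fell. Gpx7 (ENSMUSG00000028597.12) encodes a peroxidase of the endoplasmic reticulum with cysteine in place of selenocysteine, as in the codons shown earlier. Its 3-week levels were 5.92, 4.34, 4.27 and 3.24 CPM in CD mice and 8.47, 9.75, 7.65 and 7.95 in HF+SD mice. At 6 weeks they were 6.28, 6.94, 8.93 and 8.36 in CD mice and 14.6, 18.3, 16.9 and 17.6 in HF+SD mice. All HF+SD mice lay above all CD mice at each time, though the gene is among the least abundant of the 35. The log2 fold change was 0.93 (SE 0.18, adjusted p = 0.00875) at 3 weeks and 1.14 (SE 0.16, adjusted p = 0.00184) at 6 weeks, and both calls held without any single mouse.

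Gpx3 (ENSMUSG00000018339.13), a secreted selenoprotein, had 191, 172, 210 and 184 CPM on the CD at 3 weeks and 140, 130, 143 and 129 on the HF+SD. The groups did not overlap, and the log2 fold change was -0.48 (SE 0.08, adjusted p = 0.00446). Gpx3 was called with any mouse left out, at -0.53 to -0.43, but not in 1 fit of all 16 libraries that shared their spread (-0.49, adjusted p = 0.105). At 6 weeks CD mouse M22 (151 CPM) lay within the HF+SD range of 148 to 174 CPM while M43, M45 and M48 had 231, 241 and 329, and the log2 fold change of -0.56 missed the threshold (adjusted p = 0.0935). Without M22 it was -0.72 with an adjusted p of 0.00922. Adipocyte markers moved with Gpx3 at 3 weeks, where 4 of 6 were lower on the HF+SD, at a summed 0.0226 to 0.0463% of counts against 0.0621 to 0.0783%. Their part was not tested.

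The other glutathione peroxidases were not called by edgeR. DESeq2's Wald test called Gpx2 higher at 6 weeks and Gpx4 higher at 3 weeks. Gpx1, the abundant cytosolic enzyme, differed by -0.03 at 3 weeks and 0.04 at 6 weeks on the log2 scale. Gpx4, which reduces lipid peroxides, differed by 0.16 and 0.12. Gpx2, an NRF2 target, had 38.1 to 120 CPM in CD mice and 95.4 to 177 in HF+SD mice at 6 weeks, with a log2 fold change of 1.16 and an adjusted p of 0.0611. The groups overlapped only through CD mouse M43 at 120 CPM, and without M43 the log2 fold change was 1.67 with an adjusted p of 0.00612. At 3 weeks the log2 fold change of Gpx2 was 0.01.

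Of the peroxiredoxins, only Prdx6 (ENSMUSG00000026701.16), which also acts on oxidised phospholipids, was called, and only at 3 weeks. It had 128, 132, 189 and 193 CPM in CD mice and 120, 118, 112 and 111 in HF+SD mice, a log2 fold change of -0.48 (SE 0.14, adjusted p = 0.0466). The groups did not overlap, with M53 and M54 close above the HF+SD mice and M55 and M96 far above. Of 8 fits that left out a mouse, Prdx6 was called in those without M53 (-0.58) or M54 (-0.57), and in the others its adjusted p was up to 0.118. In 1 fit of all 16 libraries its adjusted p was 0.0663, and 0.0898 once adjusted for a muscle score, the mean log2 CPM of the 13 skeletal muscle genes. That covariate at 3 weeks called Nqo1 lower (-1.30, adjusted p = 0.0184) and Prdx5 higher (0.39, adjusted p = 0.0235). Muscle genes took at most 0.00568% of counts at 3 weeks, so the score cannot gauge a part of muscle RNA in these 3-week changes. At 6 weeks the log2 fold change of Prdx6 was -0.41 with an adjusted p of 0.123.

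Prdx5, a peroxiredoxin of mitochondria and peroxisomes, came close to the threshold at both times. Its CD mice had 246 to 296 CPM and its HF+SD mice 316 to 349 at 3 weeks, and 333 to 397 against 471 to 532 at 6 weeks. The groups overlapped at neither time. The log2 fold changes were 0.27 with an adjusted p of 0.0501 and 0.43 with an adjusted p of 0.0537. DESeq2's Wald test gave Prdx5 an adjusted p of 0.0247 and 0.00614. Prdx1, Prdx2 and Prdx4 had 6-week log2 fold changes of 0.13, 0.07 and 0.29, and mitochondrial Prdx3 had -0.47, none of them called.

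In the thioredoxin system, Txnrd2 (ENSMUSG00000075704.18), the mitochondrial thioredoxin reductase, fell at 6 weeks. It had 12.3, 14.3, 17 and 16.6 CPM in CD mice M22, M43, M45 and M48 and 8.62, 10, 9.66 and 10.7 on the HF+SD. The groups did not overlap, and M22, the CD mouse with little muscle RNA, lay nearest the HF+SD mice. The log2 fold change was -0.63 (SE 0.15, adjusted p = 0.0212), and -0.13 with an adjusted p of 0.411 at 3 weeks. Adjusted for the muscle score, Txnrd2 had -0.42 with an adjusted p of 0.163, and of 8 fits that left out a mouse it was called without M22, M43 or M35, with an adjusted p of 0.0501 to 0.0648 in the others. Cytosolic Txn1 and Txnrd1 had 6-week log2 fold changes of 0.18 and 0.28, Txnrd3 had -0.24, and mitochondrial Txn2 had -0.47, none of them called.

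Among the 4 genes of glutathione synthesis and reduction, Gclc (ENSMUSG00000032350.10), the catalytic subunit of the rate-limiting enzyme, rose at 6 weeks, but turned to -0.08 (adjusted p = 0.755) when libraries were scaled to thyrocyte genes, which is 0.54 above that scaling's shift of all genes. It had 55.2, 42.3, 38.8 and 39.5 CPM in CD mice M22, M43, M45 and M48 and 54.2, 61.6, 68.3 and 64 in HF+SD mice M5, M18, M34 and M35. M22 lay just above M5, so the groups overlapped. The log2 fold change was 0.50 (SE 0.15, adjusted p = 0.0395), and of 8 fits that left out a mouse Gclc was called without M22 (0.63) or M5 (0.56), with an adjusted p of up to 0.11 in the others. In the fit that adjusts for muscle, it was 0.25 with an adjusted p of 0.287. At 3 weeks the diets did not overlap, though M55 (CD) and M31 (HF+SD) both round to 55 CPM, and the log2 fold change of 0.26 missed the threshold (adjusted p = 0.0861). Without M55 it was 0.34 with an adjusted p of 0.00672. The modifier subunit Gclm, the other synthesis enzyme Gss and glutathione reductase Gsr were not called at either time, with log2 fold changes of -0.47 to 0.15.

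NRF2 itself (Nfe2l2) and its inhibitor Keap1 were not called. Nfe2l2 had 156 to 313 CPM in CD mice and 245 to 386 CPM in HF+SD mice at 6 weeks, a log2 fold change of 0.47 with an adjusted p of 0.225. Keap1 had -0.19 at 6 weeks and -0.08 at 3 weeks. The well-known NRF2 targets Hmox1 and Nqo1 moved in opposite directions at 6 weeks.

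Hmox1 (ENSMUSG00000005413.9), which degrades haem, had 13.5, 14.5, 12.5 and 12.6 CPM in CD mice and 41.9, 28.7, 25.7 and 30 in HF+SD mice at 6 weeks. All HF+SD mice lay above all CD mice, with M5 highest. Hmox1 rose 2.38-fold, a log2 fold change of 1.25 (SE 0.17, adjusted p = 0.00142), which held with any mouse left out (1.09 to 1.35) and with the muscle score as a covariate (1.27, adjusted p = 0.00689) but not with M22 as the lone CD library (1.22, adjusted p = 0.0622). At 3 weeks CD mice M53, M54 and M96 had 12.9, 13.6 and 12.9 CPM, the HF+SD mice had 23.2, 22.7, 21.9 and 23.9, and CD mouse M55 had 31.6. The log2 fold change was 0.37 with an adjusted p of 0.392, and 0.80 with an adjusted p of 0.00025 without M55, so 1 library decided that call. Hmox1 is abundant in macrophages that clear red cells, and at 6 weeks 6 of 8 macrophage genes were higher on the HF+SD (a summed 0.0403 to 0.0467% of counts against 0.0206 to 0.0422%) and 3 of 6 red blood cell genes were higher (0.0521 to 0.0676% against 0.0214 to 0.0563%). Their part was not tested.

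Nqo1 (ENSMUSG00000003849.9), a quinone reductase, had 6.11, 9.52, 22.3 and 13.8 CPM in CD mice M22, M43, M45 and M48 and 4.14, 3.48, 4.3 and 3.95 on the HF+SD at 6 weeks. The groups did not overlap, and the CD mice followed the order of their muscle share. The log2 fold change was -1.70 (SE 0.36, adjusted p = 0.0115), and with any mouse left out it was -1.93 to -1.33 and called. With the muscle score as a covariate it was -0.81 with an adjusted p of 0.0612, and with M22 as the lone CD library -0.63 with an adjusted p of 0.197. At 3 weeks, when muscle RNA was near absent, Nqo1 had 4.28, 4.94, 3.32 and 10.7 CPM in CD mice and 3.58, 2.66, 3.65 and 3.26 in HF+SD mice, with -0.82 and an adjusted p of 0.125. CD mouse M96 at 10.7 CPM stood far above the others, and without it the log2 fold change was -0.35, while without M55 it was -1.02 with an adjusted p of 0.0399.

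Promoters of NRF2 targets often hold the antioxidant response element, whose core was searched for as TGACNNNGC on both strands in RefSeq windows from 250 bases before to 50 after each start (GRCm38.p6). It was in 4071 of 32851 windows, or 12.4%, in 6 of the 30 genes of the set with a window, and in 4 of the 7 NRF2 targets with one (Gclm, Prdx1, Txnrd1 and Srxn1). Hmox1, Gclc, Gsr, Prdx6 and Sod3 had no window. The matches before the start of 3 targets follow, with the core in capitals as it reads on the gene's strand (the core lies on the other strand in each).
Gclm: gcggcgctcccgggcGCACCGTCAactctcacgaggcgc
Prdx1: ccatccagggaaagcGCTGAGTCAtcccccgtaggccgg
Txnrd1: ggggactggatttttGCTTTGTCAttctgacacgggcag
They lie at chr3:122245408-122245446, chr4:116685451-116685489 and chr10:82859099-82859137, all on the plus strand. None of these 3 genes was called at either time, and a match of letters does not show that a factor binds there.

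**Figure D2:**
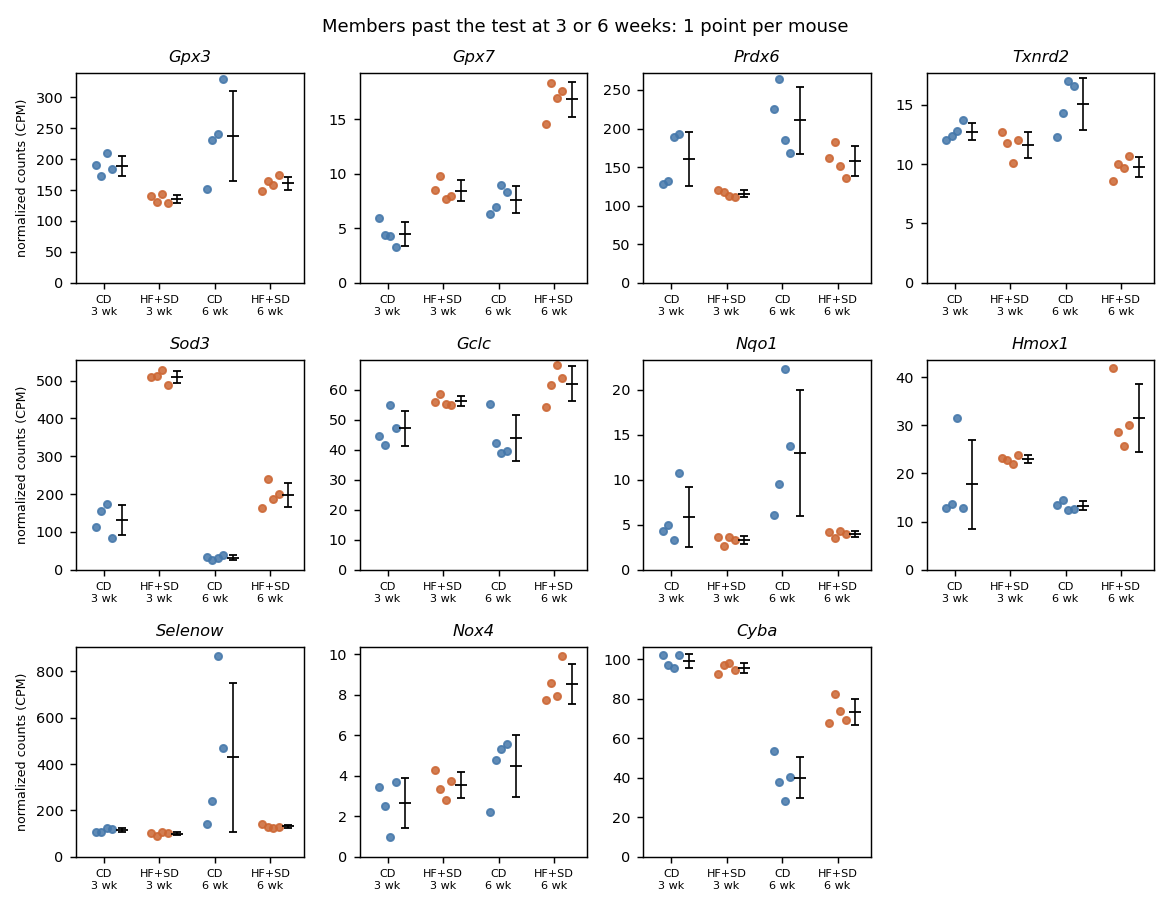
Normalised counts (CPM) of each mouse for the 11 genes called at 3 or 6 weeks, by diet and time point, with bars for mean and SD. Sod3 and Gpx7 separate the diets at both times, while the CD mice of 6 weeks spread widely for Selenow (142 to 867 CPM) and Nqo1 (6.11 to 22.3 CPM).

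In CD mouse M55 at 3 weeks, 3 of the 10 NRF2 targets (Srxn1, Hmox1 and Txnrd1) were above 1.5 times the median of the other CD mice, while Nqo1 was at 0.672 times, and Gpx2 (0.992), Gclm (1.01), Gsr (1.03), Txn1 (1.06), Prdx1 (1.13) and Gclc (1.23) lay nearer to it. Its level of Srxn1, which reactivates peroxiredoxins, was 101 CPM against 16.1, 16.6 and 25.4 in the other CD mice, or 6.1 times their median. Hmox1 was 2.44 times the median of the other CD mice, Gss 1.73 times and Txnrd1 1.54 times. Of the 35 genes, 5 were above 1.5 times that median in M55 and 1 below its inverse, against 10.2% and 14.7% of all genes. Of 21 further NRF2 targets tested, 2 were above 1.5 times in M55 (Sqstm1 at 1.83 and Osgin1 at 1.92) and 1 below its inverse (Cbr3 at 0.561), with a median of 1.01. HF+SD mouse M5 at 6 weeks had 60.3 CPM of Srxn1 against 22.3 to 25.8, and Osgin1 at 1.99 times the others' median. Srxn1 was not called at either time (log2 fold changes of -0.68 and 0.39, adjusted p = 0.421 and 0.462), and its sign turned without M55 at 3 weeks (0.36) and without M5 at 6 weeks (-0.06).

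**Figure D3:**
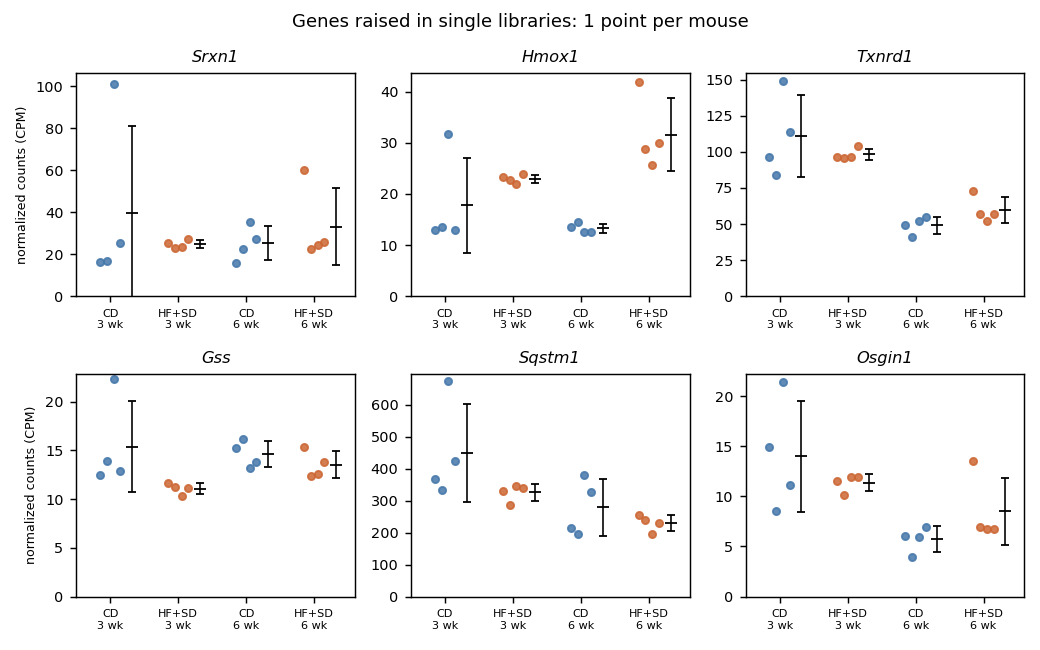
Normalised counts (CPM) per mouse of Srxn1, Hmox1, Txnrd1 and Gss and of the further NRF2-linked genes Sqstm1 and Osgin1, with bars for mean and SD (the lower bar of Srxn1 is cut at 0). In each panel 1 CD mouse of 3 weeks, M55, is the highest of its group, at 101 CPM for Srxn1 and 31.6 CPM for Hmox1.

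Both NADPH oxidase genes, which serve production and not removal of reactive oxygen, rose at 6 weeks. Nox4 (ENSMUSG00000030562.18), an oxidase that releases hydrogen peroxide, had 2.21, 4.77, 5.3 and 5.57 CPM in CD mice and 7.73, 8.56, 7.91 and 9.91 in HF+SD mice. The groups did not overlap, with M22 lowest, and the log2 fold change was 0.93 (SE 0.28, adjusted p = 0.0396). Nox4 was called in only 1 of 8 fits that left out a mouse, that without M22 (0.72, adjusted p = 0.0118), and it was not called in 1 fit of all 16 libraries (0.88, adjusted p = 0.0553). Once muscle score entered the fit as a covariate, it was 1.63 with an adjusted p of 0.00374. Cyba (ENSMUSG00000006519.12), the membrane subunit p22phox that Nox4 needs, had 53.4, 37.8, 28.3 and 40.4 CPM in CD mice and 67.6, 82.5, 74 and 69.4 in HF+SD mice. There was no overlap, the log2 fold change was 0.88 (SE 0.19, adjusted p = 0.0121), and the call held with any mouse left out. Adjusted for the muscle score, Cyba had 0.56 with an adjusted p of 0.0589, and with M22 as the lone CD library 0.45 with an adjusted p of 0.193. Macrophages carry Cyba too, and the macrophage shares given for Hmox1 apply here as well. At 3 weeks Nox4 had 0.41 and Cyba -0.05, with adjusted p of 0.457 and 0.625.

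Of the remaining selenoproteins in the set, Selenow (ENSMUSG00000041571.11), a small protein abundant in muscle, fell at 6 weeks. It had 142, 241, 867 and 469 CPM in CD mice M22, M43, M45 and M48 and 140, 128, 125 and 129 on the HF+SD. The CD levels followed the muscle share, and M22 lay just above the highest HF+SD mouse. The log2 fold change was -1.72 (SE 0.48, adjusted p = 0.032), the largest decrease of the 35 genes, yet of 8 fits that left out a mouse it was called only without M22 (-2.0) or M43 (-1.96). Without M45 it was -1.15 with an adjusted p of 0.0572. In the fit that adjusts for muscle, it was -0.37 with an adjusted p of 0.447, and with M22 as the lone CD library -0.12 with an adjusted p of 0.678. At 3 weeks, Selenow levels were 107, 108, 123 and 118 CPM in CD mice against 99.9, 88, 107 and 103 in HF+SD mice, a log2 fold change of -0.20 with an adjusted p of 0.144. Selenop and Selenot were not called, at -0.01 and -0.20 after 6 weeks.

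**Figure D4:**
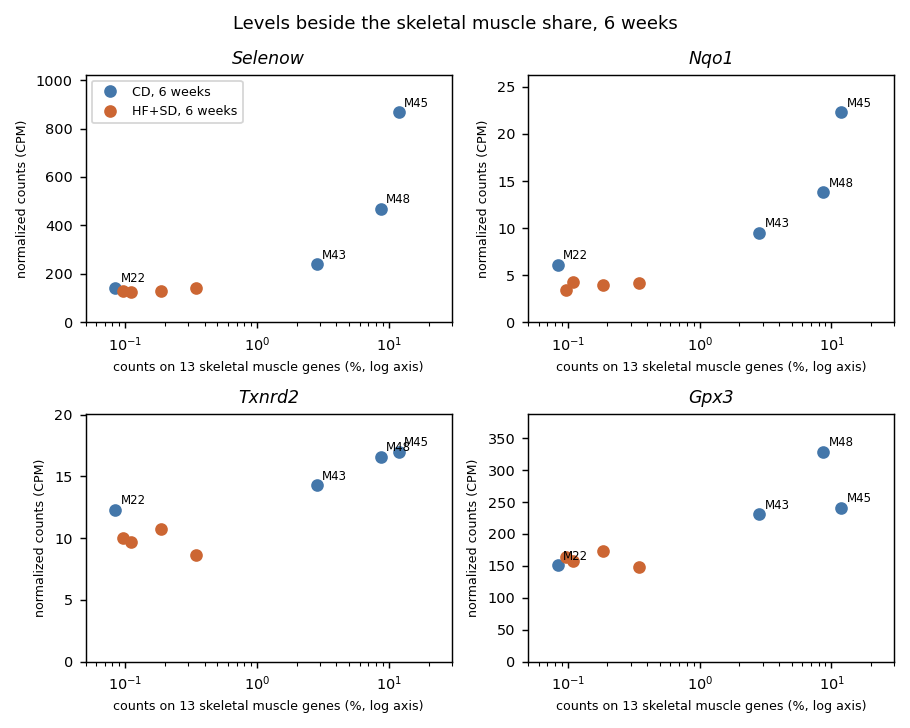
Level (CPM) of Selenow, Nqo1, Txnrd2 and Gpx3 against the percentage of reads counted on 13 skeletal muscle genes (log axis) in the 8 mice of 6 weeks, with CD mice named. CD mouse M22, at 0.0837%, lies near the HF+SD mice for Selenow and Gpx3, and M45, at 11.9%, has the highest Selenow (867 CPM) and Nqo1 (22.3 CPM).

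Skeletal muscle RNA thus moved with the genes that fell at 6 weeks. Of the genes that rose, Gclc and Cyba were highest in M22 (55.2 and 53.4 CPM) and lowest in M45 (38.8 and 28.3 CPM) among CD mice. Neither stayed called with the muscle score as a covariate. Sod3, Gpx7, Hmox1 and Nox4 did not run from highest in M22 to lowest in M45. Gpx7 instead rose with the muscle share of the CD mice (M22 6.28, M43 6.94, M48 8.36 and M45 8.93 CPM). Nox4 was lowest in M22, at 2.21 CPM against 4.77, 5.57 and 5.3 in M43, M48 and M45. All 13 muscle genes tested lower in HF+SD mice. After adjustment for the muscle score, 4 of the 35 genes were called, all of them higher (Sod3 2.58, Gpx7 1.35, Hmox1 1.27 and Nox4 1.63), and none lower. Over all genes, calls fell from 3927 to 2039 with this covariate, and 62.2% of the 2039 were higher. Against M22 alone, whose library was assumed to vary like the HF+SD mice, Sod3 (2.54), Gpx7 (1.42) and Nox4 (1.94) stayed positive on the log2 scale. Without M22, 14 of the 35 genes were called, with Prdx5 added among the higher and Gpx3, Prdx3, Txn2 and Sod2 among the lower. Calls over all genes rose to 5743 in that fit. Without M45, M48, M18 or M34, only 5 of the 35 were, beside 1934 to 2898 calls over all genes. The counts for the 35 genes thus moved with those of all genes.

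The 3 classes overlap, since Gpx2 is peroxidase, selenoprotein and NRF2 target at once. At 6 weeks, 2 of 10 NRF2 targets rose and 1 fell (median log2 fold change 0.23), 1 of 13 peroxidases rose (0.07), and 2 of 10 selenoproteins fell (-0.10). The shares of all genes were 12.0% higher and 9.55% lower. DESeq2, with 5273 calls over all genes, called 3 NRF2 targets higher and 1 lower, 3 peroxidases higher, and 1 selenoprotein higher and 2 lower. At 3 weeks, edgeR called none of the 10 NRF2 targets (2 at an unadjusted p under 0.05, and 0 by DESeq2), 1 peroxidase higher and 2 lower, and 1 selenoprotein lower, with medians of -0.01, -0.03 and -0.12. Here 9.07% of all genes were higher and 5.78% lower. DESeq2, with 3644 calls over all genes, called 3 peroxidases higher and 2 lower, and 1 selenoprotein in each direction. The 2 selenoproteins that fell at 6 weeks were Selenow and Txnrd2, and neither was called with the muscle score as a covariate. Scaled to 9 thyrocyte genes in place of all genes, the 6-week medians turned to -0.38 for NRF2 targets and -0.57 for peroxidases and stayed negative for selenoproteins at -0.75, where the median of all genes was itself shifted by -0.62. No difference between classes was tested.

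Whether the diet response itself differed between time points was tested as an interaction over all 16 libraries. Over all 18929 genes tested, 0.0687% passed an adjusted p under 0.05 with a more positive log2 fold change at 6 weeks than at 3 weeks. A further 0.0106% passed with a more negative one. None of the 35 genes passed in edgeR, 9 had an unadjusted p under 0.05 (22.3% of all genes did), and DESeq2 called 2, Cyba and Selenow. Over all genes, edgeR called 15 and DESeq2 1802. Cyba came closest, with 0.87 on the log2 scale and an adjusted p of 0.0592, followed by Selenow with -1.59 and 0.0962. Leaving out M22 gave 6 calls, among them Cyba (1.06, adjusted p = 0.000817) and Selenow (-1.88, adjusted p = 0.00583), and leaving out M43 gave 3. Calls over all genes then rose to 2715 without M22 and 1285 without M43. The number of interaction calls thus depended on the test and on single CD libraries across all genes. Genes called at 1 time point only are thus not shown to differ between time points.

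The genes around the set are given list by list. Of 12 further selenoproteins tested, 1 rose and 1 fell at each time, or 8.33% in each direction. Over all genes, 12.0% were higher and 9.55% lower at 6 weeks, and 9.07% and 5.78% at 3 weeks. The selenoproteins called were the deiodinases Dio1 and Dio2. Dio1, which converts thyroxine to its active form, had 261 to 435 CPM in CD mice and 864 to 888 in HF+SD mice at 3 weeks and 275 to 479 against 1250 to 1530 at 6 weeks, with log2 fold changes of 1.28 (adjusted p = 0.000598) and 1.90 (adjusted p = 0.000775). Dio2, the other activating deiodinase, went the other way, at -1.38 (adjusted p = 0.00321) and -1.92 (adjusted p = 0.00411). Neither overlapped between diets at either time. Dio2 is also expressed in brown fat, and brown adipocyte markers moved with it: 3 of 4 were lower in HF+SD mice at 6 weeks (a summed 0.00731 to 0.0203% of counts against 0.0523 to 0.0856%) and 4 of 5 at 3 weeks (0.00938 to 0.0182% against 0.0184 to 0.0389%). Of the adipocyte markers, 4 of 6 were lower at each time. Their part in the Dio2 result was not tested.

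Of 11 genes of selenocysteine synthesis and selenium supply, 1 rose at 3 weeks, and 2 rose and 1 fell at 6 weeks. At 3 weeks that is 9.09% higher, against 9.07% of all genes. At 6 weeks it is 18.2% higher and 9.09% lower, against 12.0% and 9.55% of all genes. Lrp8, the receptor that takes up selenoprotein P in several tissues, rose at both, with 1.63 to 2.57 CPM against 6.08 to 9.3 at 3 weeks (1.92, adjusted p = 0.000421) and 0.942 to 2.61 against 7.96 to 16.6 at 6 weeks (2.68, adjusted p = 0.0011). Lrp2, which takes up selenoprotein P in kidney, rose at 6 weeks (0.99, adjusted p = 0.0188) and Pstk, an enzyme of selenocysteine synthesis, fell (-0.62, adjusted p = 0.0409). Once muscle score entered the fit as a covariate, Lrp8 stayed called (2.13), while Lrp2 (0.75, adjusted p = 0.121) and Pstk (-0.34, adjusted p = 0.318) did not. The mRNA of Selenop, the ligand of both receptors, did not pass the test at either time.

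Of 21 further NRF2 targets tested, 1 rose and 4 fell at 6 weeks, where 12.0% of all genes were higher and 9.55% lower. At 3 weeks 1 rose and 3 fell, beside 9.07% and 5.78% of all genes. Tkt, a pentose phosphate enzyme, fell at both (-0.84 and -1.36, adjusted p = 0.00384 and 0.00246), as did the glutathione transferase Gstm1 (-0.81 and -1.24, adjusted p = 0.00841 and 0.00201). Gsta3 rose at both (0.95 and 1.31, adjusted p = 0.000839 and 0.0237). Gstm1 followed the muscle share in the CD mice of 6 weeks (M22 170, M43 234, M48 258 and M45 294 CPM, against 92.3 to 112 in HF+SD mice). Adjusted for the muscle score, Gstm1 (-0.89, adjusted p = 0.00509) and Tkt (-1.63, adjusted p = 0.00166) stayed called at 6 weeks, and Gsta3 did not (0.86, adjusted p = 0.2). Transferases belong to families of similar genes whose reads can be split between copies.

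On the surrounding lists together, scaling to thyrocyte genes changed the 6-week calls from 6 higher and 9 lower to 2 higher and 32 lower. Over all genes the calls went from 3927 (55.6% of them higher) to 7468 (9.68% higher). Among 11 genes of hydrogen peroxide production, 1 rose and 1 fell at each time, or 9.09% in each direction. Over all genes, 12.0% were higher and 9.55% lower at 6 weeks, and 9.07% and 5.78% at 3 weeks. Duoxa2, the maturation factor of the thyroid oxidase Duox2, rose at 6 weeks (1.05, adjusted p = 0.0163), Duox2 rose at 3 weeks (0.65, adjusted p = 0.0154), and Duoxa1 fell at both (-2.37 and -1.17) from CD levels of at most 4.21 CPM. Of 12 genes of glutaredoxins, NADPH supply and NRF2 control, 3 rose at 3 weeks (Glrx, Msrb2 and Glrx5, 0.61, 0.42 and 0.40), or 25%. At 6 weeks Bach1, a repressor of NRF2 targets, rose (0.59, less than the thyrocyte scaling's shift), or 8.33%. The mitochondrial NADPH source Idh2 (-0.82) and Glrx3 (-0.80) fell at 6 weeks, or 16.7%. Glrx3 followed the muscle share in CD mice (M22 86.2, M43 129, M48 143 and M45 188 CPM), and M22 lay next to the HF+SD mice at 73.2 to 84.9 CPM. Idh2 had 128 CPM in M22 and 181 to 220 in the other CD mice, against 90.9 to 121 in HF+SD mice. In the fit that adjusts for muscle, neither was called at 6 weeks (Glrx3 -0.29, adjusted p = 0.254, and Idh2 -0.49, adjusted p = 0.114), nor were Duoxa1 (-1.12, adjusted p = 0.143) and Duoxa2 (0.61, adjusted p = 0.0575), while Bach1 was (0.68, adjusted p = 0.0291). At 3 weeks, Glrx and Msrb2 lost their calls with that covariate (adjusted p = 0.109 and 0.13). With a muscle share of at most 0.00568% there, the score cannot gauge a part of muscle RNA in this.

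**Figure D5:**
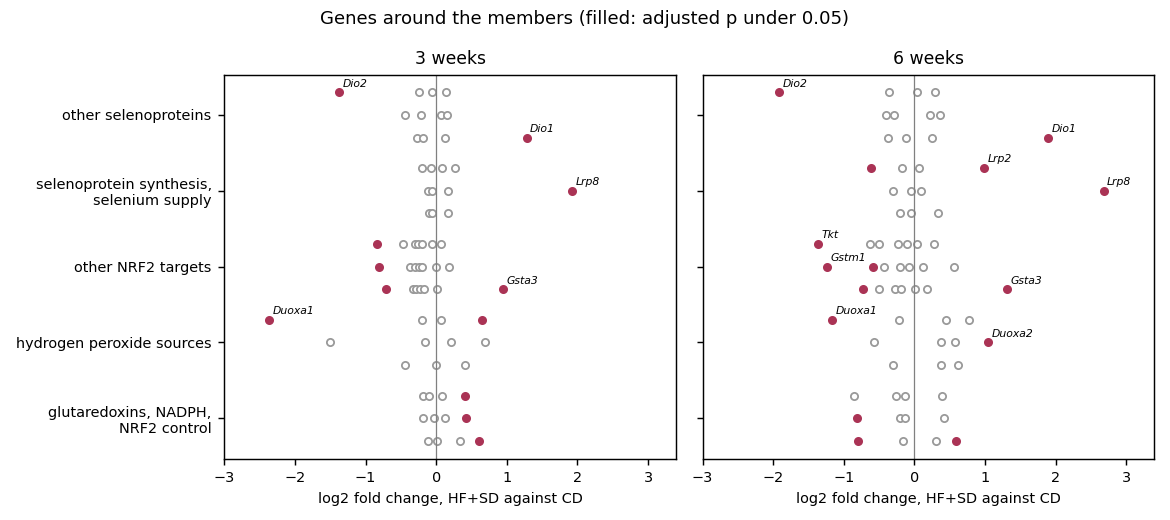
Log2 fold change of HF+SD against CD at 3 weeks (left) and 6 weeks (right) for each tested gene of 5 lists around the set, with filled points for an adjusted p under 0.05. Dio1 and Lrp8 lie to the right and Dio2 and Duoxa1 to the left at both times, and the other filled points lie between -1.36 and 1.31.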

How the data were processed

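Per the labels and the study's methods, poly(A) RNA of whole thyroid was sequenced as 150 bp read pairs. The authors deposited raw read counts per gene, used here, and a normalised table (count divided by 1 size factor per library), not used. The submitters' processing notes name Trim Galore 0.6.7, STAR, DESeq2 1.36.0, R 4.1.0 and mm39. The counter and strand setting are not given in the sources used. Identifiers were matched to GENCODE M21 (20841 of 21640), also used for exon lengths and coding sequences.

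Diets were compared within each time point in R 4.3.3 with edgeR 4.0.16 (TMM, filterByExpr, quasi-likelihood, Benjamini-Hochberg), called at an adjusted p under 0.05. The SE is the absolute log2 fold change over the square root of F. CPM used TMM-adjusted library sizes. The muscle score is the mean log2 CPM (prior count 2) of 13 genes. Alternatives used DESeq2 1.42.0, other scalings and filters, 1 fit of 16 libraries, the muscle covariate and each mouse left out. Scripts were tested on simulated counts. All 35 genes are named, with values per mouse for those called, and up to 3 called genes per surrounding list and time. Genes and lists were chosen with earlier results of these data known. The study's legend for the RNA-seq figure states 3 CD mice at 6 weeks without naming them, and all 4 deposited were used here.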

Additional observations from a re-analysis of the deposited data

Results flagged for a closer look

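Of 140 sets of 4 mice, 13 held a mouse far from the other 3 by Dixon's ratio, where chance alone gives about 1 in 20. On the CD at 3 weeks, M55 was high for Srxn1 (101 CPM, others 16.1 to 25.4), Hmox1 (31.6, others 12.9 to 13.6), Gss (22.3, others 12.5 to 13.9) and Prdx4 (37.2, others 32.5 to 32.9). In the same group M96 was high for Gpx2 (118, others 67.4 to 69.1) and Gclm (42.9, others 31.1 to 33.1). On the CD at 6 weeks, M43 was high for Gpx2 (120, others 38.1 to 50.9) and low for Gsr (20.2, others 25.4 to 26.3). On the HF+SD at 3 weeks, M31 was low for Gpx1 (149, others 170 to 172) and high for Txnrd1 (104, others 96 to 96.7). On the HF+SD at 6 weeks, M5 was high for Srxn1 (60.3, others 22.3 to 25.8) and low for Cat (118, others 145 to 146), and M35 was high for Keap1 (38.8, others 33.4 to 34.2).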

How the results depend on the processing

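Calls over all genes are given in brackets. The 9 genes called at 6 weeks (3927) became 12 with DESeq2's test (5273) and 16 in 1 fit of all 16 libraries (6182). They became 4 with the muscle score as a covariate (2039). They became 5 with a log2 fold change above 1 (2308) and 5 to 14 with 1 mouse left out (1934 to 5743). The 15 genes called on the surrounding lists became 8, 34 (scaled to thyrocyte genes), 8 and 7, and 6 to 19 with 1 mouse left out. The 4 genes called at 3 weeks (2560) became 6 with DESeq2's test (3644), 2 in 1 fit (1420) and 1 above the fold minimum (803). They became 3 to 9 with 1 mouse left out (1448 to 3393), most without M55 (3393). The 12 surrounding genes became 4 above the fold minimum. The interaction count of 0 (15) became 1 with DESeq2 size factors (92), 2 with DESeq2's test (1802) and 0 to 6 with 1 mouse left out (1 to 2715). Scaling to thyrocyte genes turned Gclc at 6 weeks to -0.0796 (adjusted p = 0.755), or 0.54 relative to the shift of all genes. It left Sod3 (2.00) as the only higher gene, with 12 lower, where 9.68% of the 7468 calls over all genes were higher. The cause of these changes was not tested. No paired analysis was possible because the labels give each mouse its own number. Nox4 rested on 77 to 369 counts per library at 6 weeks, where it was called, and on 38 to 176 at 3 weeks. Counting error thus adds to its spread. Gpx7 (219 to 656) and Nqo1 (111 to 687) also rested on low counts at 6 weeks.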
